A study of Glycine max with 24 samples.

Results

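Roots of CD (Chundou), the soybean accession labelled low-P tolerant, were compared between low P (diluted Hoagland nutrient solution with 0.005 mmol/L P) and normal P (the same solution with 0.5 mmol/L P). The members are the 3 arrays titled as CD roots in low P and the 3 titled as CD roots in normal P, 6 of the 24 arrays of the series. The other 18 arrays hold CD leaves, and roots and leaves of YH, the accession labelled low-P sensitive, in the same solutions. Seedlings stayed in hydroponics for 10 days, and each group had 3 biological replicates with 1 Affymetrix Soybean Gene 1.1 ST array each. CD and YH are 1 accession each, so neither stands for tolerant or sensitive soybeans in general. KCl replaced the phosphate salt in low P, so the solutions differed in more than P. The samples are whole roots, in which fewer cells of a type and less RNA per cell cannot be told apart.

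Values are log2 of the deposited intensity of a probe set, a group of short DNA probes that reads 1 transcript or a few similar ones. To be called, a probe set had to reach a 2-fold change and an adjusted p below 0.05 in limma, fitted to all 24 arrays. Median log2 signal lay between 2.83 and 2.91 on all 6 CD root arrays. All 26 probe sets of the leaf marker list, photosynthetic genes, were higher in CD leaves than in CD roots, and 16 of 22 of the root marker list were higher in CD roots. The summed level of the leaf markers was 7.88 to 7.98 in low P roots and 7.83 to 7.95 in normal P roots, and that of the root markers was 5.54 to 5.67 in low P and 5.36 to 5.64 in normal P. The leghemoglobin LB1, a marker of nodules, read 1.34, 1.05 and 0.72 in low P roots, against 0.72, 0.62 and 0.76 in normal P roots, below the lower quartile of every one of these arrays. Of the 22 root and 20 nodule marker probe sets 0 were called.

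Phosphate is taken up from the solution by transporters of the PHT1 family, and its level in the cell is read by SPX proteins, which in rice and Arabidopsis bind the PHR transcription factors that switch on starvation genes. Roots short of phosphate are also known to release acid phosphatases and organic acids such as malate and citrate, which free phosphate from soil. Legume roots make isoflavonoids and pterocarpans, which serve in defence and in signals to microbes, from the product of chalcone synthase.

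In the roots of CD, 247 probe sets (0.325% of 75990) were called higher in low P and 72 (0.0947%) were called lower. The rises ran between 2-fold and 33.8-fold with a median of 3.06-fold, and the falls between 2-fold and 8.92-fold with a median of 2.80-fold. Among the rises 75 exceeded 4-fold and 25 exceeded 8-fold. Among the falls 19 exceeded 4-fold and 1 exceeded 8-fold. The lowest of the 3 low P arrays was above the highest of the 3 normal P arrays for 244 of the 247 (5.35% of all probe sets) and the groups were apart the other way for 72 of the 72 (4.95% of all probe sets). A further 64 probe sets were at least 2-fold higher with an adjusted p between 0.05 and 0.1, and 56 were higher with an adjusted p under 0.05 but under 2-fold. In the same bands 11 and 12 probe sets were lower.

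Few calls were made at the dim end of the signal range. When probe sets were ordered by mean signal over the 6 arrays and divided into 4 equal classes, the dimmest class (mean log2 signal 0.35 to 1.56) held 1 of the rises and 0 of the falls. The second class held 66 rises and 15 falls, the third 79 and 12, and the brightest class (4.27 to 12.44) held 101 and 45. The brightest class thus had 40.9% of the rises and 62.5% of the falls. With log2(value + 8), which shrinks the changes of dim probe sets, it had 72.1% of the 136 rises and 87.2% of the 47 falls. The median rise was similar there, 3.26-fold, and in the third class, 3.31-fold, and it was 2.82-fold in the second. For 46 of the 247 rises the normal P mean lay under the lower quartile of the normal P arrays (1.55), and for 5 of the 72 falls the low P mean lay under the lower quartile of the low P arrays (1.56). The size of those folds is uncertain, since a value that low was not tested against background. The 5 dim falls had a median of 7.59-fold, against 2.66-fold for the other falls. In the group where they were brighter, 0 of the called probe sets had a mean under the lower quartile.

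**Figure D1:**
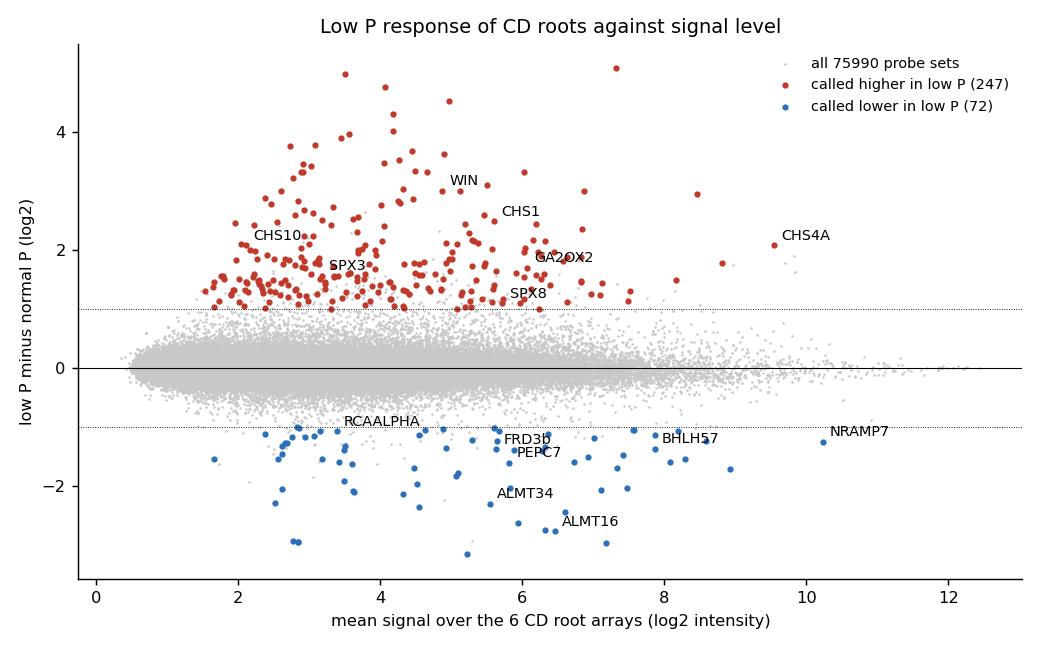
Difference between low P and normal P in CD roots (log2, vertical) against mean signal over the 6 arrays (log2 intensity, horizontal), with 1 point per probe set, the called ones coloured and 2-fold changes at the dotted lines. The 247 called rises reach 5.08 and the 72 called falls reach -3.16, and only 1 called probe set lies in the dimmest class, below 1.56.

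In the lists for phosphate sensing and uptake, calls were limited to SPX3 and SPX8. All gene lists were matched by symbol or synonym, so called probe sets with only a LOC number, several symbols or none are in no list. The paper names an SPX homolog and homologs of PHO2 among its root genes, by gene model and not by symbol. Of 6 SPX probe sets 2 were called higher and 0 lower (1.38% of all probe sets with a name in the symbol or its synonyms were called higher and 0.38% lower). The median of the list was 0.004, beside -0.01 over all probe sets. SPX3 had signals of 4.26, 3.74 and 3.87 in low P, against 2.40, 2.48 and 2.30 in normal P. Its arrays were well apart, and the rise was 2.96-fold (log2 1.57, SE 0.18, adjusted p = 6.65e-05). SPX8 read 6.50, 5.85 and 6.46 in low P and 5.46, 5.16 and 4.88 in normal P. Its groups did not overlap, and it rose by 1.101 (SE 0.22, adjusted p = 0.0214). With the replicate number as a block the adjusted p of SPX8 was 0.0539, and without low P replicate 1 or 3, or normal P replicate 2 or 3, it was not called (0.96 to 1.31 over the 6 fits). With log2(value + 8), which shrinks the changes of dim probe sets, neither SPX3 nor SPX8 was called. SPX2, SPX4, SPX6 and SPX9 were within 0.15 of no change.

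Of 14 PHT1 probe sets 0 were called, and their median was 0.10. The nearest was PHT1-3, at 6.26, 6.03 and 6.12 in low P against 5.26, 5.31 and 5.28 in normal P. Its low P arrays were above all normal P arrays with a small spread in both groups, a difference of 1.81-fold (SE 0.19 on the log2 scale, adjusted p = 0.0414) that missed the fold threshold. PHT1-1, the brightest member at 7.52 in low P and 7.34 in normal P, differed by 0.17 (adjusted p = 1). Among 29 PHR, 8 PHO1 and 7 acid phosphatase and phytase probe sets 0 were called in each list, with medians of 0.04, 0.02 and 0.08. PAP14, a purple acid phosphatase, read 5.99, 5.32 and 5.61 in low P and 5.13, 4.74 and 4.80 in normal P (difference 0.75, adjusted p = 0.347). Its groups did not overlap.

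Chalcone synthases, which catalyse the first step of flavonoid synthesis, had 5 called of 10 probe sets, and the cytochromes P450 had 4 of 80. With the replicate number as a block the counts were 5 and 6, and 5 among the 42 NAC factors. Of all probe sets with a name in the symbol or its synonyms, 1.38% were called higher and 0.38% lower without the block. Of 10 chalcone synthase probe sets 5 were called higher and 0 lower, all 10 differences were above 0, and their median was 1.23. CHS4A, the brightest called member, had signals of 10.95, 10.23 and 10.60 in low P, against 8.98, 8.53 and 8.01 in normal P. Every low P array was above every normal P array, and the rise was 4.24-fold (log2 2.08, SE 0.32, adjusted p = 0.00151). CHS1 read 7.73, 6.39 and 6.39 in low P and 4.93, 4.44 and 3.68 in normal P, with replicate 1 highest in both groups. It rose 5.61-fold (log2 2.49, SE 0.41, adjusted p = 0.00332). CHS9 (2.17, adjusted p = 8.34e-04), CHS10 (2.09, adjusted p = 5.53e-04) and CHS2 (1.90, adjusted p = 4.15e-04) also rose. CHS10 was dim, at 1.21, 1.07 and 0.90 in normal P, and lost its call with log2(value + 8). None of the 5 was called when only the CD root arrays were fitted without the block. The other 5 members were apart from these: CHS7, bright in both groups at 9.70 in low P and 9.40 in normal P, differed by 0.29, CHS8 by 0.57, and CHS6, CHS13 and CHS14 by 0.01 to 0.04. CHS1 and CHS9 are neighbours in the RefSeq gene order, and chalcone synthase genes are similar in sequence, so signal shared between probe sets of this family cannot be told apart from separate changes.

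Further steps towards isoflavonoids had 1 called probe set of 41. CYP93A1, the dihydroxypterocarpan hydroxylase of the route to glyceollin, the soybean phytoalexin, had signals of 5.48, 3.93 and 4.82 in low P, against 3.30, 2.54 and 2.34 in normal P. The groups did not overlap, and it rose by 2.02 (SE 0.31, adjusted p = 0.00143). The largest difference of the list was in CHI2-A, a chalcone isomerase, at 6.59, 6.02 and 6.64 in low P and 4.62, 4.04 and 4.01 in normal P. It was 2.19, with an adjusted p of 0.0998, and with the replicate number as a block the adjusted p was 0.00308. IFS2, isoflavone synthase, read 10.09, 9.53 and 9.91 in low P and 8.47, 8.00 and 7.83 in normal P. Its difference of 1.74 missed the threshold (adjusted p = 0.0639) and passed it with the block (0.00407). In neither gene did the groups overlap. IFS1 had 2 probe sets at 0.31 and 0.41, and the median of the list was 0.10. In the earlier steps from phenylalanine, 0 of 14 probe sets were called: PAL3.1 differed by 0.57 and PAL2.1 by -0.55 (adjusted p = 1 and 0.649).

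**Figure D2:**
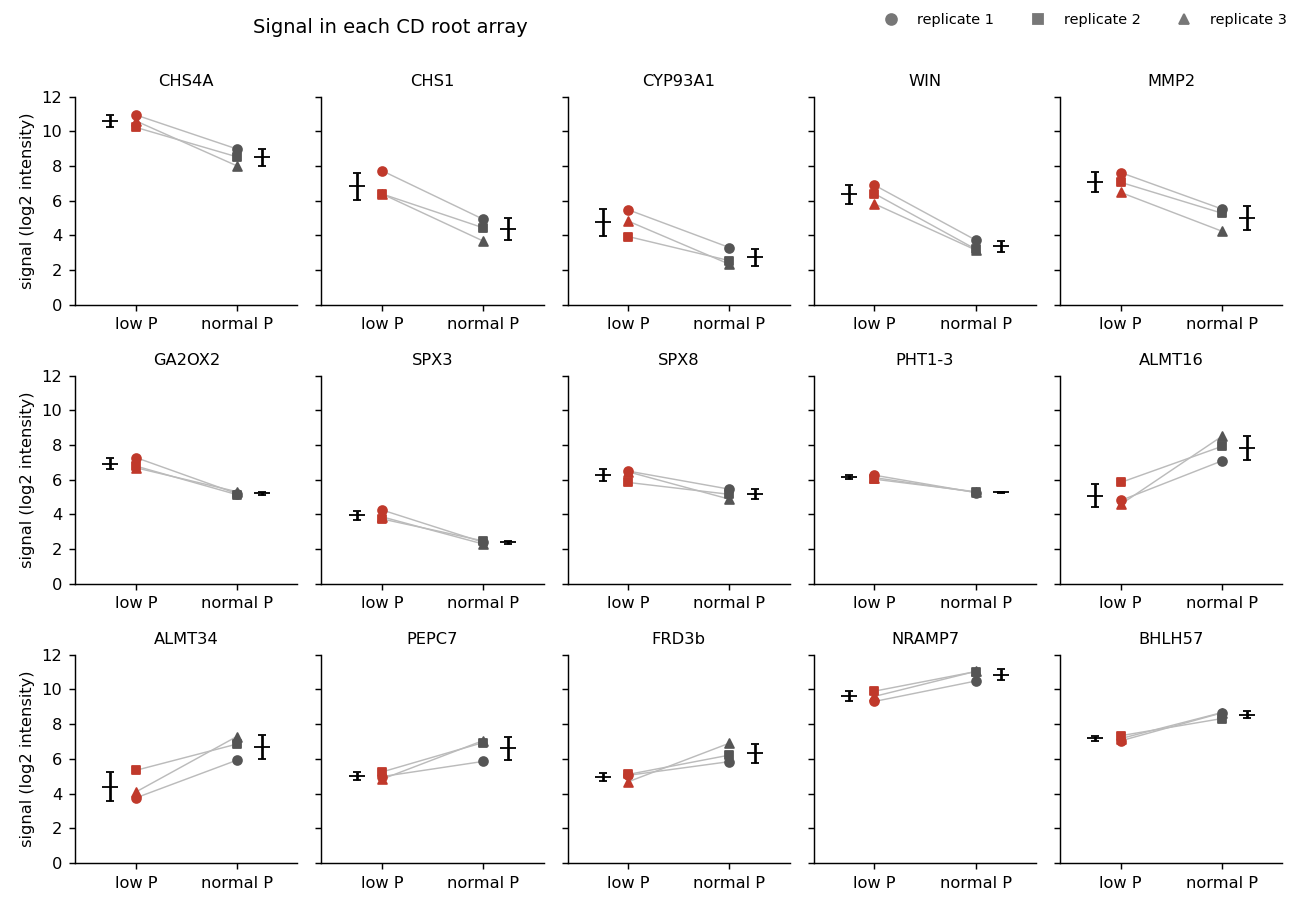
Signal (log2 intensity) of 15 genes in each CD root array, low P at the left and normal P at the right of each panel, with grey lines between arrays of the same replicate number and the mean ± SD (n = 3) in black beside the points. Low P is above normal P in CHS4A, CHS1, CYP93A1, WIN, MMP2, GA2OX2, SPX3, SPX8 and PHT1-3 and below it in the other 6, with no overlap in any panel.

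Other enzymes and defence genes rose in a few members of their lists. Of 80 cytochrome P450 probe sets 4 were called higher and 0 lower: CYP93A1, CYP82A2, LOC100778056 (CYP82A4) and LOC100789410 (CYP81E10). LOC100789410 read 7.39, 5.61 and 7.26 in low P, against 5.88, 3.21 and 3.39 in normal P. It was 1 of the 3 called rises whose groups overlapped, since low P replicate 2 lay below normal P replicate 1 (2.59, SE 0.54, adjusted p = 0.0252). It was not called without low P replicate 1 or 3 or normal P replicate 2 or 3 (2.11 to 3.45 over the 6 fits that left out 1 CD root array), nor was CYP82A2 without low P replicate 1 or normal P replicate 2 or 3 (1.34 to 2.06). Of 15 pathogenesis-related probe sets 3 rose and 0 fell. WIN had 6.90, 6.41 and 5.82 in low P and 3.73, 3.21 and 3.16 in normal P, 8.03-fold higher in low P (log2 3.01, SE 0.28, adjusted p = 3.54e-06). MMP2, a matrix metalloproteinase that cleaves proteins outside the cell, rose 4.10-fold (log2 2.04, SE 0.31, adjusted p = 0.00123), with 7.62, 7.06 and 6.48 in low P and 5.52, 5.28 and 4.25 in normal P. LOC547729, with the synonym BGL, rose by 1.61 (adjusted p = 0.00930) and was not called without low P replicate 1 or normal P replicate 3 (1.35 to 1.82). BBI-1, of the Bowman-Birk inhibitors of serine proteases, rose by 1.22 (adjusted p = 0.00674), the single call among 12 protease inhibitor and wound protein probe sets, and was not called without normal P replicate 3 (1.08 to 1.41). GER14, a germin-like protein, was the single call of 27 in its list (1.76, adjusted p = 0.00408). Among 63 glutathione S-transferases 0 were called. GSTU38 read 4.75, 3.35 and 3.21 in low P and 3.42, 2.02 and 1.95 in normal P, so that replicate 1 was highest in both groups and the groups overlapped. Its difference of 1.31 had an adjusted p of 0.124, and 0.00472 with the block.

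The list of lipoxygenases and jasmonate enzymes, matched by symbol, had 0 called of 17 and a median of 0.22. LOC100815477, annotated in the study's tables as similar to a linoleate 9S-lipoxygenase, is in no list and was called higher (2.16, adjusted p = 3.19e-05). Allene oxide synthase and cyclase make the precursor of jasmonate, a wound hormone. LOC100800036 (AOC2, an allene oxide cyclase) had 5.87, 5.14 and 5.79 in low P and 4.89, 3.88 and 4.32 in normal P (1.24, adjusted p = 0.115), and the lipoxygenase VLXC had 4.86, 4.39 and 4.52 in low P and 3.68, 3.41 and 2.95 in normal P (1.24, adjusted p = 0.140). AOS2, allene oxide synthase, differed by 1.09 (adjusted p = 0.880). These 3, with no overlap between their groups, passed with the block (adjusted p = 0.0127, 0.0163 and 0.0247).

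Among hormone genes GA2OX2, a gibberellin 2-oxidase that inactivates gibberellins, had 7.28, 6.79 and 6.69 in low P, against 5.20, 5.14 and 5.31 in normal P. The arrays of each group lay close together, and the rise was 3.26-fold (log2 1.70, SE 0.22, adjusted p = 2.59e-04). It was the single call of 21 in its list. ACS, an ACC synthase of ethylene synthesis, rose by 1.49 (SE 0.33, adjusted p = 0.0416) as the single call of 18 in its list, and leaving out any 1 of the 6 CD root arrays ended that call (1.26 to 1.64). LOC100779524, similar to an ethylene-responsive factor, is in no list and was called higher (2.42, adjusted p = 0.00974). GASA26, of the gibberellin-regulated GASA peptides, rose by 1.52 (adjusted p = 6.28e-04) as 1 of 28, with 4.31, 4.13 and 5.14 in low P and 3.13, 3.22 and 2.67 in normal P. Its adjusted p was 0.0853 with the block. Of 75 auxin probe sets 0 were called. GH3, of a family that conjugates auxin to amino acids, differed by 1.36 (adjusted p = 0.0514).

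Called members of the transcription factor lists were few, and few are due when 1.38% of all probe sets with a name in the symbol or its synonyms were called higher. Of 42 NAC probe sets 2 rose: NAC4, at 7.15, 6.29 and 5.85 in low P against 4.94, 3.94 and 4.07 in normal P (2.12, SE 0.42, adjusted p = 0.0168), and NAC27 (1.82, adjusted p = 0.0303). Neither was called without low P replicate 1, normal P replicate 2 or normal P replicate 3, nor NAC27 without low P replicate 3 or normal P replicate 1 (1.76 to 2.43 for NAC4 and 1.45 to 2.06 for NAC27). With the block 5 were called. The 3 added ones were LOC100814504 (1.33), LOC100170751 (1.19) and NAC018 (1.11), with adjusted p = 0.00841, 0.0119 and 0.0412. The NAC median was 0.14. Probe set 12124458, assigned to several genes and so in no list, is annotated as the factor NAC11 in the study's tables. It was called higher too, at 6.43, 5.73 and 5.34 in low P and 3.77, 2.44 and 2.20 in normal P (3.03, SE 0.44, adjusted p = 8.89e-04). Of 58 WRKY probe sets 1 was called, WRKY25, at 3.78, 2.06 and 1.83 in low P and 1.16, 1.11 and 0.87 in normal P. Low P replicate 1 stood well above the other 2 low P arrays. It rose by 1.51 (SE 0.32, adjusted p = 0.0264), and its adjusted p was 0.130 with the block. It differed by 0.90 without low P replicate 1 and was not called then, nor without any 1 normal P array. Of the WRKY probe sets 15 did not overlap upwards and 4 downwards (5.35% and 4.95% of all probe sets), at a median of 0.03. HSF-36 was the single call of 36 heat shock factors (1.59, adjusted p = 0.00552) and was not called without low P replicate 1 or normal P replicate 2 or 3 (1.25 to 1.94). Among 72 MYB and 84 bZIP and TGA probe sets 0 were called. MYB29 differed by 0.96 (adjusted p = 0.0534) and BZIP104 by 0.93 (0.0684).

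The falls included genes of organic acid and metal handling. Of 21 ALMT probe sets, aluminium-activated malate transporters that release malate from cells, 2 were called lower and 0 higher, with a median of -0.001. ALMT16 had 4.81, 5.85 and 4.58 in low P, against 7.09, 7.92 and 8.50 in normal P. In ALMT34 the values were 3.75, 5.34 and 4.09 in low P and 5.92, 6.85 and 7.29 in normal P. Both genes had their highest low P value in replicate 2 and their lowest normal P value in replicate 1, and the groups did not overlap. ALMT16 was 6.77-fold lower in low P (log2 -2.76, SE 0.39, adjusted p = 6.52e-04) and ALMT34 4.92-fold lower (log2 -2.30, SE 0.35, adjusted p = 0.00151). ALMT29 ran the other way, at 4.82, 4.44 and 3.90 in low P and 4.04, 3.11 and 2.30 in normal P (1.24, adjusted p = 0.318, and 0.0293 with the block), with groups that overlapped.

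PEPC7, a PEP carboxylase, which forms the oxaloacetate from which malate and citrate are made, fell to 4.98, 5.24 and 4.83 in low P, against 5.85, 6.94 and 7.05 in normal P (-1.60, SE 0.35, adjusted p = 0.0351). It was the single call of 10 in its list, whose median was -0.34, and of the 6 fits that left out 1 CD root array only the one without normal P replicate 1 called it (range -1.98 to -1.38). PPCK1, a kinase that activates PEP carboxylase, differed by -0.92 (adjusted p = 0.0888), whereas the bright PEPC4 was at 7.71 in low P and 7.65 in normal P. FRD3b, related to a citrate transporter that loads iron into the xylem of Arabidopsis, had 5.05, 5.10 and 4.68 in low P and 5.84, 6.22 and 6.90 in normal P. It fell by 1.38 (SE 0.22, adjusted p = 0.00200) as 1 of 2 citrate and MATE transporter probe sets, and the adjusted p was 0.0895 with the block. NRAMP7, of a family of metal ion transporters, was the brightest named fall. It read 9.31, 9.90 and 9.60 in low P, against 10.48, 11.03 and 11.04 in normal P, and fell by 1.25 (SE 0.25, adjusted p = 0.0189). It was the single call of 19 metal transport and iron storage probe sets, whose median was -0.09. It was not called without low P replicate 1 or 3, or normal P replicate 2 or 3 (-1.43 to -1.10). IRT, named as an iron transporter, was at 2.41 in low P and 3.23 in normal P (-0.83, adjusted p = 0.495).

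The bHLH factors were the list with the lowest median, -1.08 over 6 probe sets of 5 genes, of which 2 fell and 0 rose. All 6 had every low P array below every normal P array (4.95% of all probe sets). In BHLH57 the signals were 7.04, 7.33 and 7.17 in low P and 8.65, 8.32 and 8.67 in normal P, a fall of 1.37 (SE 0.28, adjusted p = 0.0228). BHLH56 had 7.04, 7.31 and 6.79 in low P and 7.97, 7.83 and 8.46 in normal P and fell by 1.04 (SE 0.23, adjusted p = 0.0410, and 0.119 with the block). Neither was called in 5 of the 6 fits that left out 1 CD root array, the fit without low P replicate 2 being the exception for both (-1.48 to -1.29 for BHLH57 and -1.17 to -0.85 for BHLH56). BHLH320 had 2 probe sets at -1.12 and -1.11 (adjusted p = 0.439 and 0.229), which passed with the block (0.0345 and 0.00968). BHLH300 differed by -0.91 (adjusted p = 0.115) and BHLH59 by -0.63, at an adjusted p of 0.0310 but under 2-fold. RCAALPHA, a Rubisco activase of the leaf marker list, was also called lower (-1.07, adjusted p = 0.00824), at 3.31, 2.49 and 2.76 in low P and 4.40, 3.83 and 3.53 in normal P. Without low P replicate 2 or normal P replicate 1 it was not called (-1.30 to -0.83). The other 25 leaf marker probe sets were not called, and the median of that list was 0.07. The summed level of its 10 nuclear genes was 5.97 to 6.12 in low P and 6.15 to 6.19 in normal P, and the part of leaf-type transcripts in the fall of RCAALPHA was not tested.

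**Figure D3:**
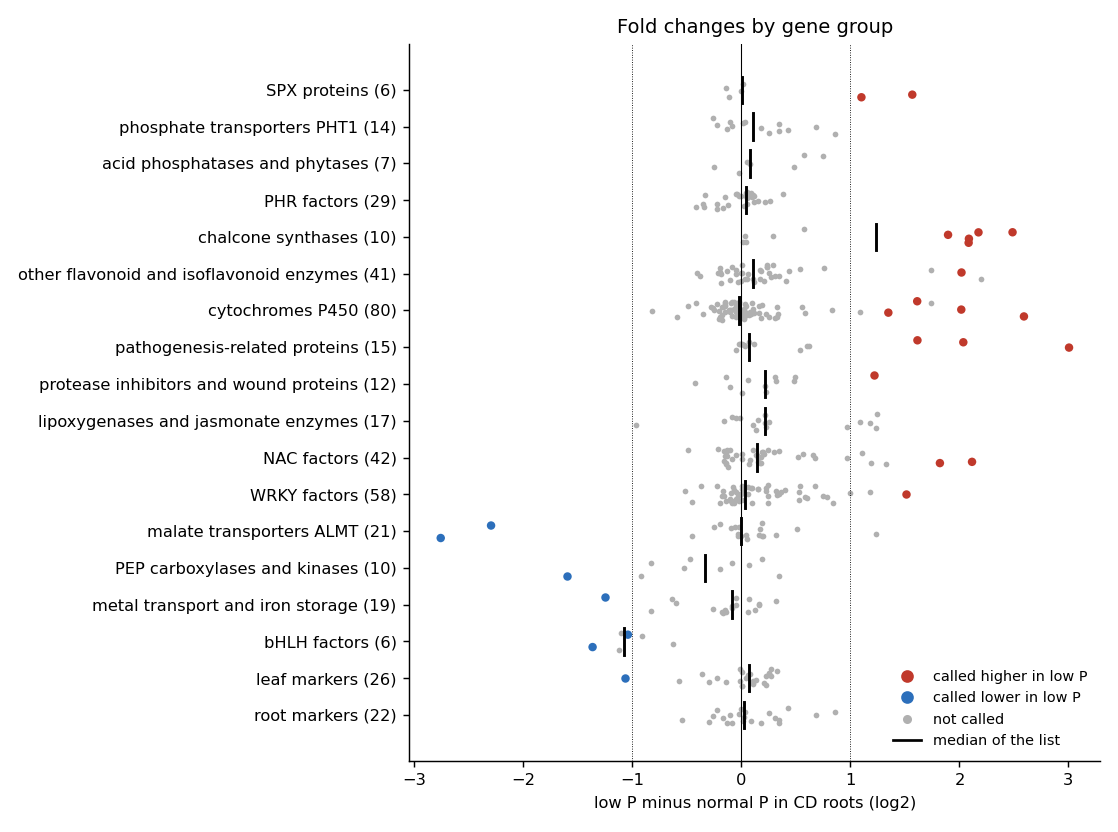
Difference between low P and normal P in CD roots (log2, horizontal) for the members of 18 gene lists, with the number of probe sets in brackets, 1 point per probe set, called members coloured, medians as black bars and 2-fold changes at the dotted lines. The chalcone synthases have the highest median, 1.23, and the bHLH factors the lowest, -1.08, while the other medians lie between -0.34 and 0.22.

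Lists for other functions had few calls or none. The TPS genes had 2 rises of 17, TPS2 (1.59) and TPS14 (1.42), and aldehyde dehydrogenases and glyoxalases had 2 of 66, ALDH2B2 (1.23) and GLYI-9 (1.02). With the block TPS14 and GLYI-9 were not called (adjusted p = 0.0670 and 0.130). Without low P replicate 1 or normal P replicate 2 none of TPS14 (0.96 to 1.73), ALDH2B2 (1.09 to 1.40) and GLYI-9 (0.81 to 1.29) was called, nor were ALDH2B2 and GLYI-9 without normal P replicate 3, nor GLYI-9 without low P replicate 3. In the lists of peroxidases (6), heat shock proteins (13), CRK receptor kinases (49), IQD proteins (54), nitrate and ammonium transport (14), SWEET sugar transporters (32), aquaporins (44) and expansins (14) there were 0 calls, with medians between -0.11 and 0.07. Members without a family symbol are missing from these lists. The paper names peroxidase genes, by gene model, among those common to its treatment, accession and tissue comparisons. SWEET11 read 2.69, 2.17 and 3.73 in low P and 1.37, 1.22 and 1.46 in normal P (1.51, adjusted p = 0.399, and 0.0493 with the block). Of the 1187 probe sets in any list, 27 were called higher and 8 lower, while 1.38% and 0.38% of all probe sets with a name in the symbol or its synonyms were called. A further 2 called genes had a name but no list, PTS3 (2.67, adjusted p = 5.87e-06) and OAS-TL3. OAS-TL3, an O-acetylserine thiol-lyase of cysteine synthesis, was named after its values were seen. It had 7.76, 7.21 and 7.72 in low P and 6.22, 6.03 and 6.03 in normal P, a rise of 1.48 (SE 0.16, adjusted p = 1.68e-05).

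Most of what changed carried no gene name, as did most probe sets of the array. Of the 319 called probe sets 224 had 1 symbol, and 187 of these had only a LOC number. Several symbols were given to 14 and none to 81. On the array 30302 of 75990 probe sets had only a LOC number, and 0.617% of these were called. No symbol was given to 41999, and 0.193% of these were called. Of the 2103 with a name in the symbol or its synonyms, 1.38% were called higher and 0.38% lower. Called probe sets with 1 symbol were protein-coding in 219 cases (0.699% of 31326) and pseudogenes in 3 (0.425% of 706). Of 220 long non-coding RNAs 0 were called. At such shares few calls or none are due among 220, so the 0 is no result about that class. Some of the unnamed genes are annotated in the study's tables. LOC100807221, annotated as similar to basic 7S globulin, had 7.04, 7.01 and 6.08 in low P, against 3.83, 3.14 and 2.29 in normal P, and rose by 3.62 (SE 0.48, adjusted p = 3.11e-04). LOC100802020, annotated as a putative glutamine amidotransferase, rose by 3.53 (adjusted p = 3.54e-06) and LOC100816141, similar to stem-specific protein TSJT1, by 2.45 (adjusted p = 1.08e-04). LOC100815477, similar to a linoleate 9S-lipoxygenase, rose by 2.16 (adjusted p = 3.19e-05) and LOC100799184, similar to a polygalacturonase inhibitor, by 1.96 (adjusted p = 8.51e-05). LOC100779524, similar to an ethylene-responsive factor, read 5.97, 3.69 and 3.88 in low P and 2.44, 1.98 and 1.87 in normal P. It rose by 2.42 (SE 0.45, adjusted p = 0.00974), and was not called without low P replicate 1 or normal P replicate 2 or 3 (1.69 to 2.83). LOC100500291, for which the tables give no function, rose by 2.996 (adjusted p = 1.79e-07).

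The brightest called rises with 1 symbol, after CHS4A, were LOC100500599, LOC100819528, LOC100813417 and LOC100305948, which rose by 1.13 to 1.78. LOC100813417 had 8.08, 7.98 and 8.10 in low P and 7.08, 7.03 and 6.65 in normal P. The brightest falls, after NRAMP7, were LOC100811993, LOC100789302, LOC100811013 and LOC100790114, with differences of -1.07 to -1.71. In LOC100790114 the values were 7.50, 7.76 and 7.31 in low P and 8.79, 8.96 and 9.43 in normal P (-1.54, SE 0.18, adjusted p = 8.47e-05). None of these 8 had overlapping groups. Without low P replicate 1 or normal P replicate 2 or 3, LOC100500599 (1.61 to 2.001 over the 6 fits), LOC100305948 (1.28 to 1.70), LOC100813417 (0.999 to 1.21), LOC100789302 (-1.48 to -1.10) and LOC100811013 (-1.33 to -0.92) were not called. The last 3 were not called without low P replicate 2 either, nor LOC100813417 and LOC100789302 without low P replicate 3. LOC100809740 was the single gene with 2 called probe sets, at -2.62 and -2.05. Probe set 12067593, assigned to several genes, had the highest difference of all, with 10.18, 10.10 and 9.29 in low P and 7.53, 3.25 and 3.56 in normal P. Normal P replicate 1 stood far above the other 2 normal P arrays. The difference was 5.08 (SE 0.98, adjusted p = 0.0135) and 6.45 without that array, and it was not called without low P replicate 1 or 2 or normal P replicate 2 or 3 (lowest 4.32). Probe sets 12202130 and 12202131, with no symbol, carried identical values on all 24 arrays and count as 1 measurement of the 72 falls. Of all probe sets 847 shared their 24 values with another. Along the RefSeq gene order 4 of 173 called higher genes lay next to another called higher gene (2.31%), and 1.1% of all genes did so.

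The spread between replicates was larger among the called probe sets than over all. The median SD over all probe sets was 0.174 in low P and 0.182 in normal P (n = 3 each). Among the rises it was 0.498 in low P and 0.300 in normal P, and among the falls 0.227 in low P and 0.440 in normal P. In each set this order turned when 1 array was left out. Without low P replicate 1 the 140 rises called then had a median SD of 0.233 in low P and 0.291 in normal P. Without normal P replicate 1 the 96 falls called then had 0.223 in low P and 0.199 in normal P. These are other sets of probe sets, and the group without the array has an SD over fewer arrays, whose median tends to be lower. The part of the single array in the turn thus cannot be told apart. The low P SD exceeded the normal P SD in 161 of the 247 rises (65.2%) and 10 of the 72 falls (13.9%), against 47.3% of all probe sets. It was over 1 in 29 rises in low P and in 7 rises in normal P. These values describe probe sets chosen for their difference and carry no test.

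Among the rises replicate 1 stood apart in both groups. Low P replicate 1 was the highest of its group in 216 of the 247 rises and normal P replicate 1 in 193 (31231 and 31064 of all 75990 probe sets). Median deviations from the group mean among the rises were 0.44, -0.23 and -0.22 for low P replicates 1, 2 and 3, and 0.26, -0.06 and -0.23 for normal P replicates 1, 2 and 3. Among the falls normal P replicate 1 was the lowest of its group in 50 of 72 and normal P replicate 3 the highest in 57, with median deviations of -0.39 and 0.37. Over all probe sets these counts were 28876 and 25019. The median deviations of low P replicates 1, 2 and 3 among the falls were -0.07, 0.11 and -0.04. Between arrays of the same number the median difference was 1.90, 1.44 and 1.63 for the rises and -1.17, -1.39 and -1.96 for the falls, for replicates 1, 2 and 3. Of the rises 170, and of the falls 38, were at least 2-fold in all 3 same-number pairs (260 of all 75990 probe sets). Both sets were chosen for a 2-fold mean difference, so these counts are a description. Correlations on the whole array were 0.967 to 0.989 within a group and 0.978 to 0.986 between same-numbered low P and normal P arrays (across probe sets, which are not independent). Between low P and normal P arrays of other numbers they were 0.958 to 0.985. With the replicate number as a block the median SE of the rises was 0.173, against 0.271 in the fit without it. That block, fitted to the 6 arrays, called 291 higher (0.383%) and 88 lower (0.116%), and 259 of the 319 were shared. Left out together, the arrays numbered 1 gave 192 higher and 80 lower, and 228 of the 319 stayed called. In each of the 6 fits without 1 CD root array, 158 of the 319 stayed called, 126 higher and 32 lower.

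**Figure D4:**
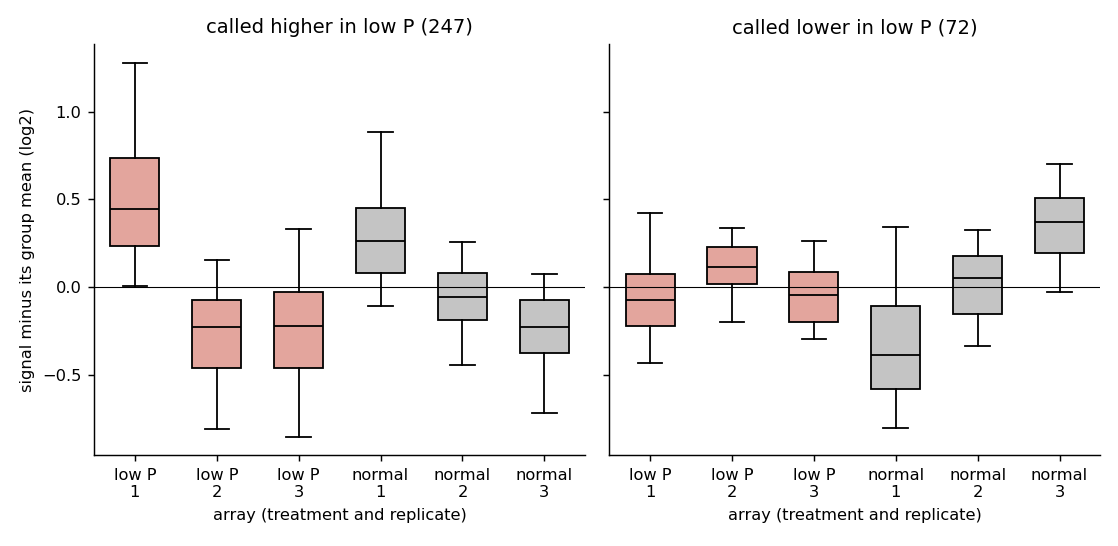
Signal of each CD root array minus the mean of its group (log2, vertical) over the 247 called rises and the 72 called falls, with boxes from the lower to the upper quartile, the median inside, whiskers at the 5th and 95th percentile and arrays along the horizontal axis. Low P replicate 1 has a median of 0.44 among the rises, and normal P replicates 1 and 3 lie at -0.39 and 0.37 among the falls.

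The response of CD roots was set against that of YH roots and of CD leaves by the interaction term of the same model. For the 247 rises the median difference between low P and normal P was 1.61 in CD roots, -0.15 in YH roots and -0.004 in CD leaves. The interaction with YH roots called 106 of them (42.9%), all with the higher response in CD roots, and that with CD leaves called 74 (30%), while 0.146% and 0.1% of all probe sets were called in that direction. For the 72 falls the medians were -1.49 in CD roots, -0.33 in YH roots and -0.02 in CD leaves. Of these, 7 (9.72%) passed the interaction with YH roots and 14 (19.4%) that with CD leaves (0.0118% and 0.0211% of all probe sets). The 247 and the 72 were chosen by the CD root difference, which is part of each interaction, so these shares are a description and no independent evidence. In YH roots 75 of the 247 rises differed in the same direction and 0 reached 2-fold in it, while 8 were at least 2-fold lower there. Of the 72 falls 62 differed in the same direction and 6 reached 2-fold, and 0 were at least 2-fold higher there. YH roots had 1 called probe set and CD leaves 3 over the whole array (0.00132% and 0.00395%), and 0 of them were among the 319.

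By gene, CHS2 differed by 1.90 in CD roots, -0.26 in YH roots and -0.28 in CD leaves, and passed both interactions (adjusted p = 0.00962 and 0.0114). WIN (3.01 in CD roots, -0.21 in YH roots and 0.12 in CD leaves) and GA2OX2 (1.70, -0.41 and 0.08) also passed both. SPX3 differed by 1.57 in CD roots and 0.52 in YH roots, and the interaction of 1.04 (SE 0.26) did not pass (adjusted p = 0.191). Against CD leaves, at -0.15, it did (adjusted p = 0.00375). PHT1-3 differed by 0.86 in CD roots and 0.47 in YH roots (adjusted p = 1 for the interaction). The MMP2 response, 2.04 in CD roots, was 1.85 in CD leaves and -0.32 in YH roots, and only the interaction with YH roots passed (adjusted p = 0.0208). NAC4 differed by 2.12 in CD roots, 1.76 in CD leaves and -0.61 in YH roots, and neither interaction passed (adjusted p = 0.0821 with YH roots and 1 with CD leaves). In ALMT16 the difference of -2.76 in CD roots stood beside -0.89 in YH roots (interaction -1.87, SE 0.55, adjusted p = 0.515) and 0.53 in CD leaves (interaction adjusted p = 0.0117). FRD3b, at -1.38 in CD roots, was -0.56 in YH roots and 0.22 in CD leaves (interaction adjusted p = 1 and 0.0395). NRAMP7, PEPC7 and both called bHLH factors passed neither interaction, with differences of -0.21 to -0.59 in YH roots.

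**Figure D5:**
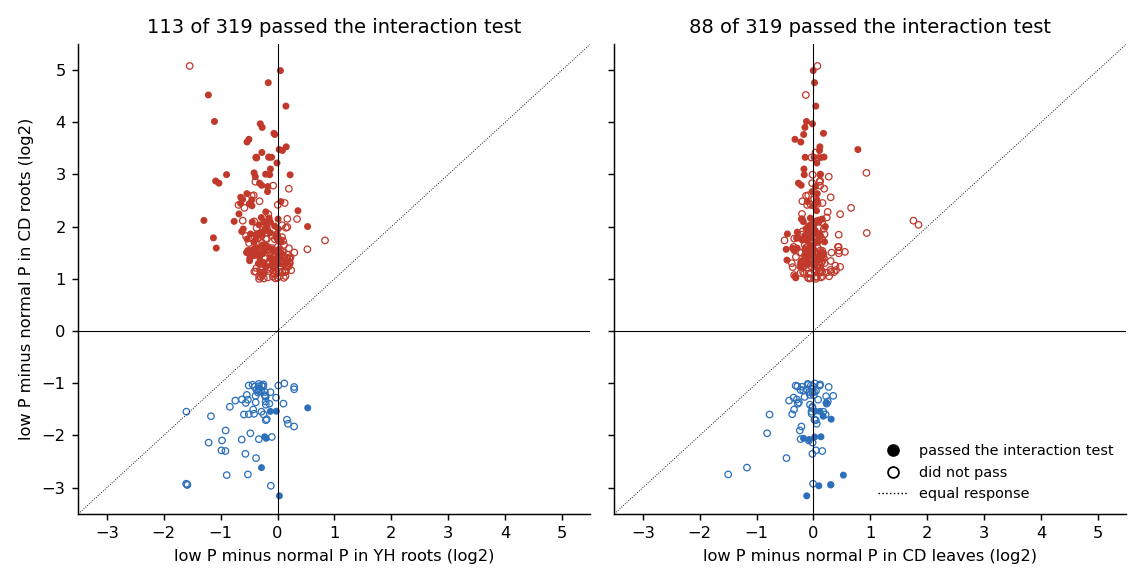
Difference between low P and normal P (log2) of the 319 called probe sets in CD roots (vertical) against YH roots and CD leaves (horizontal), rises in red and falls in blue, filled where the interaction passed. Rises have medians of -0.15 and -0.004 on the horizontal axes, with 8 of them at least 2-fold lower in YH roots. Filled points number 113 against YH roots and 88 against CD leaves.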

How the data were processed

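Total RNA of roots and leaves was hybridised to 24 Affymetrix Soybean Gene 1.1 ST arrays, 3 for each of 8 groups. The values are the deposited linear intensity of 75990 probe sets, with none missing. The methods name RMA as the summary and the submitters' processing notes name MAS5, and which of them made the deposited intensity values was not settled. Background calls were not used here, so no probe set was tested against background, and the 3 arrays per group limit the precision.

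Intensities were converted to log2 and fitted with limma 3.58.1 in R 4.3.3, with 1 mean per group (16 residual and 4.22 prior degrees of freedom), no filter and Benjamini-Hochberg adjustment over all probe sets. Calls needed a 2-fold change and an adjusted p below 0.05, or an interaction of at least 1 on the log2 scale. SAM, named in the methods, was written out anew over all 20 assignments of the 6 arrays. limma with and without the block, SAM and the interaction were tested on simulated data.

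Same-numbered low P and normal P arrays of CD roots deviated together from their group means (r over probe sets of 0.522, 0.144 and 0.449 for replicates 1, 2 and 3), so the number was also used as a block over these 6 arrays (2 residual degrees of freedom). Between arrays of other numbers r was -0.508 to 0.232. Low P replicate 2 had a higher r with normal P replicate 3 (0.232) than with its own number. The pairing of replicate 2 is thus not settled, and the block was chosen from these same data. The labels give the numbers but do not say what they share.

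A single gene symbol was given for 32405 probe sets, several for 1586 and none for 41999. The platform annotation and the RefSeq gene table (assembly Glycine_max_v4.0, used for names and gene order) hold no descriptions, so 41 gene lists were made by symbol, and a probe set counted as described when it had a name, a synonym or an annotation in the study's tables. Markers of dividing cells were not used here for that reason. Genes were named by rule: the 10 largest rises and falls with 1 described gene, the 5 brightest in each direction, up to 4 called members of each list (up to 2 of the smallest p where none was called), those with 1 symbol annotated in the study's tables, and up to 2 probe sets without a single gene in each direction. Other members named in the text were chosen after their values were seen. The comparison, the lists and the rules were chosen with earlier results of these data known.

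The alternatives changed the scaling (quantile or median), the dim probe sets kept (without the lowest 33.3%), the offset (log2(value + 8)) and the test, with other sets of arrays, the block, a trended prior, other thresholds and SAM, and each array was left out in turn.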

Additional observations from a re-analysis of the deposited data

Results flagged for a closer look

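Differences in response between CD roots and the other sample types were picked out with the interaction contrasts of the limma fit, and values are the log2 difference between low P and normal P in CD roots minus that in the other sample type. Between CD roots and YH roots 120 probe sets differed, and between CD roots and CD leaves 92. Of these, 113 and 88 were among the 319 called in CD roots.

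Among the genes named by rule, several had a higher response in CD roots than in both other sample types. All genes given in this section were called in CD roots. That difference is part of each interaction, so the values are a description and no independent evidence. Probe set 11827191, with no symbol, had differences of 4.92 against YH roots and 4.74 against CD leaves. LOC100807221 had 4.16 and 3.85 in the same order, LOC100802020 had 3.38 and 3.42, WIN had 3.21 and 2.88, and LOC100500291 had 3.13 and 3.16. PTS3 had 2.85 and 2.70, LOC100816141 had 3.09 and 2.40, LOC100815477 had 2.31 and 2.22, and LOC100799184 had 2.18 and 2.09. The chalcone synthase CHS10 had 2.21 and 2.09 and CHS2 had 2.16 and 2.18. GA2OX2 had 2.12 and 1.63, TPS2 had 1.77 and 1.87, and LOC100819528 had 1.99 and 1.62.

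Against YH roots alone, the differences of genes named by rule that passed were 2.46 for CHS9, 2.32 for CHS4A, 2.36 for MMP2 and 2.21 for CYP93A1. Against CD leaves alone, SPX3 passed with 1.72. Lower responses in CD roots were found for LOC100790114, at -1.41 against YH roots and -1.65 against CD leaves. FRD3b (-1.60), ALMT16 (-3.28) and the probe sets 12202130 and 12202131, which share their values (-3.25 each), passed against CD leaves.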

How the results depend on the processing

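None of the called genes named in the report changed direction under any alternative. PRX3, a peroxidase that was not called (-0.37), was at 0.04 without normal P replicate 1, and the medians of several gene lists, among them SPX, ALMT, MYB and GASA, changed sign under some alternatives. The order of the median SD of low P and normal P turned in both called sets when 1 array was left out, with the limits given in the report. The main counts in CD roots were 247 higher and 72 lower. They were 136 and 47 with log2(value + 8), 163 and 46 at an adjusted p under 0.01, and 60 and 19 when only the 6 arrays were fitted without the block. The 12 root arrays alone gave 46 lower, and SAM 41. Leaving out 1 CD root array at a time gave 140 to 282 higher and 35 to 96 lower, with the fewest calls in both directions without normal P replicate 3 (140 and 35) and 140 higher also without low P replicate 1. Interaction counts were 120 with YH roots and 92 with CD leaves. They were 54 and 50 without the block on the arrays compared and 60 and 39 at an adjusted p under 0.01, and leaving out 1 array gave 71 to 162 and 50 to 143. With the replicate block the interaction with YH roots gave 227, and the main comparison 291 higher and 88 lower. Beyond those given in the report, the block changed no other call of a named gene. With log2(value + 8) the calls of SPX3, SPX8, CHS10, GER14, GASA26, BBI-1, HSF-36, NAC27, WRKY25, TPS2, TPS14, ALDH2B2, GLYI-9, LOC100778056, BHLH56 and RCAALPHA ended. When only the 6 CD root arrays were fitted without the block, the chalcone synthases, CYP93A1, MMP2, ALMT16, ALMT34, PEPC7, FRD3b and NRAMP7 were among those not called. WIN, GA2OX2, SPX3 and BHLH57 stayed called in that fit.

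Of the gene list members 27 were called higher and 8 lower. Those called higher were 14 with log2(value + 8), 5 without the block on 6 arrays, and 15 to 30 with 1 array left out. Those called lower were 1 without the block, 4 at an adjusted p under 0.01, and 4 to 7 with 1 array left out. Without both arrays numbered 1, an alternative chosen after seeing the data, 5 were lower.

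The share in the brightest of the 4 signal classes, 40.9% of the rises and 62.5% of the falls, was 72.1% and 87.2% with log2(value + 8), and 28.9% to 46.5% and 54.2% to 61.5% with 1 array left out. With log2(value + 8) the median SD was 0.223 in normal P among the rises, 0.186 in low P among the falls, and 0.0796 in low P and 0.0842 in normal P over all probe sets. With 1 array left out, the median SD of the rises was 0.233 to 0.529 in low P and 0.164 to 0.325 in normal P, that of the falls 0.148 to 0.228 in low P and 0.199 to 0.514 in normal P, and that of all probe sets 0.110 to 0.174 in low P and 0.116 to 0.185 in normal P. The cause of these shifts was not tested.

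Quantile normalization moved the median difference of all probe sets to -0.013 and median centring to -0.003, beside -0.014. Signal was not tested against background, so the folds of dim probe sets are uncertain.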
